A study of Caenorhabditis nigoni and Caenorhabditis briggsae with 14 samples.

Results

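Males of 2 wild-type strains, AF16 of Caenorhabditis briggsae and JU1421 of C. nigoni, were compared by messenger RNA sequencing of whole young adult worms. Each strain had 3 male libraries, chosen by the strain and stage in the labels, which made 6 of the 14 libraries of the series. Both strains are labelled fertile. For each library 300 males were picked, 300 ng of their total RNA were used, and both ends of fragments were read over 150 nt. The files listed 23439 genes and 920 repeat families. None was left out before the filters on low counts, after which 13289 genes and 696 families were tested. The remaining libraries were 6 from sterile males of the introgression strains ZZY10307 and ZZY10330 and 1 labelled female for each parental strain. The sterile males have a largely C. nigoni genome in which an X segment comes from C. briggsae, a different segment in each strain. Their mothers carried the introgression, their fathers were JU1421, and cbr-myo-2::GFP served as the marker for picking, which the wild-type parents lack in the labels. The 3 libraries of each were filtered and fitted with the parents to estimate the spread, so they also bear on which genes and families were tested. They further served to define a class of genes high in XX animals. Otherwise they show the level of a gene in a further genotype. The files do not pair gene identifiers with names, so at most 2 identifiers are given in each direction for a comparison.

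C. briggsae and C. nigoni are close relatives that differ in their mode of reproduction. In C. nigoni animals with XX chromosomes are females that make oocytes only. In C. briggsae they are ordinarily hermaphrodites, which make sperm first and oocytes later and fertilise themselves. Males of both species have a single X chromosome and a gonad that makes sperm throughout adult life, and a large part of the RNA of an adult male worm comes from that germ line. Repeats are copies of transposons and other sequences that recur in a genome, and their content differs readily between related species.

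The 6 libraries held from 2649852 to 3686351 gene counts, with 13252 to 14218 genes seen at least once. A second set of tables gave 262817 to 536392 counts of repeat families per library. Libraries of 1 strain resembled each other more than libraries of different strains. Pearson's r of log2 levels across the genes tested was 0.916 to 0.934 within AF16, 0.916 to 0.920 within JU1421 and 0.755 to 0.798 between the strains. These correlations run across genes, which are not independent replicates. Over 3834 genes with a mean of 50 CPM or more (a gene's counts divided by the TMM-scaled size of the library), the median coefficient of variation was 14.9% in AF16 and 16.9% in JU1421. Whether the replicates of a strain were grown apart is not in the labels, so a p-value here reflects the spread among these libraries, which may be technical.

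The question of the comparison was how far 2 fertile male transcriptomes differ when both are normal for their species. Of 13289 genes that passed the filter on low counts, 2718 differed, which is 20.5% of the genes tested. AF16 was higher in 1226 genes, 9.23% of those tested, and lower in 1492, 11.2% of those tested. Which direction held more genes depended on the scaling: with library totals as the only scaling, 1432 were higher and 1355 lower. A gene was called different at an adjusted p below 0.05 in edgeR's quasi-likelihood test with Benjamini-Hochberg adjustment over all genes tested. In 2647 of the 2718 the 3 AF16 libraries did not overlap the 3 JU1421 libraries, against 39.9% of all genes tested. Called genes higher in AF16 had a median difference of 2.75-fold and those lower in AF16 one of 3.55-fold, and the median of all genes tested was -0.02 on the log2 scale.

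**Figure D1:**
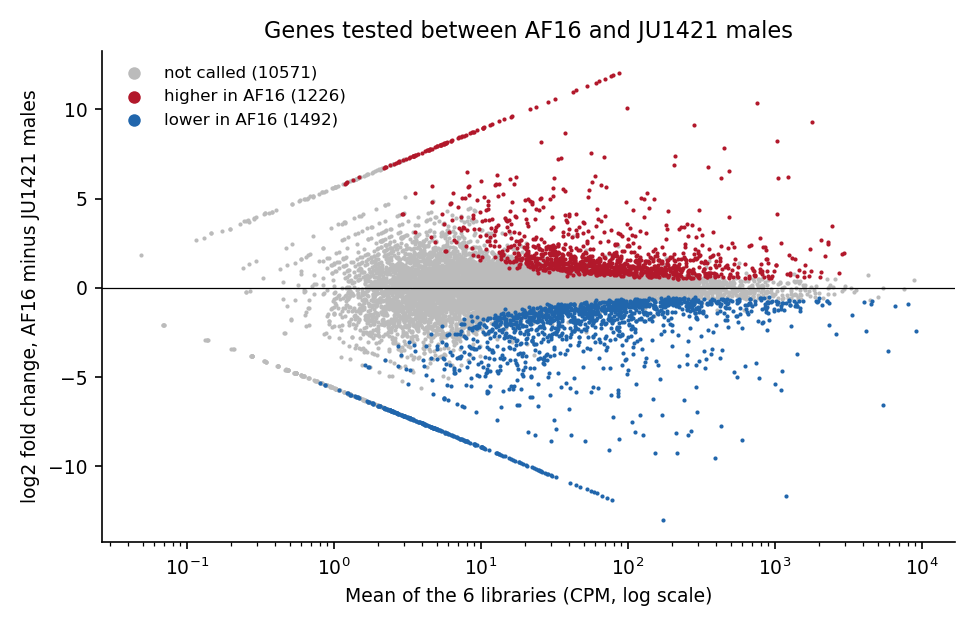
Each point is 1 of the 13289 genes tested, placed by its mean level over the 6 libraries in CPM on a log scale and by the log2 fold change of AF16 minus JU1421 males. Red points (1226) were called higher and blue points (1492) lower in AF16, and the straight outer bands are genes with no count in 1 strain, whose fitted fold changes depend on the fit and are no measured size.

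Among differences of more than 2-fold, 938 genes were higher and 1224 lower in AF16. At more than 4-fold these numbers were 392 and 687, at more than 16-fold 165 and 319, and at more than 64-fold 42 and 90. For these counts a gene with no count in one strain was held at its lower bound, against a floor of 3 counts over the group. They come from the fit over the 12 male libraries with TMM scaling. No such counts by fold are given here for another scaling or for the 6 libraries alone. The genes tested were also ranked by level and divided into 5 equal groups. In the lowest group, at a median of 3.13 CPM, 8.05% were called, and all 214 calls lay beyond 4-fold. In the highest group, at a median of 165 CPM, 38.8% were called, with 527 higher and 505 lower in AF16, and 171 of the calls lay beyond 4-fold. The median size of a called difference was 20.6-fold in the lowest group and 2.07-fold in the highest. At low counts only large differences can pass the test, so these sizes do not show that genes at low levels differ more. The sources used here do not name the genome to which the reads of either species were aligned. A difference in RNA level and a difference in how reads were assigned therefore cannot be told apart.

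**Figure D2:**
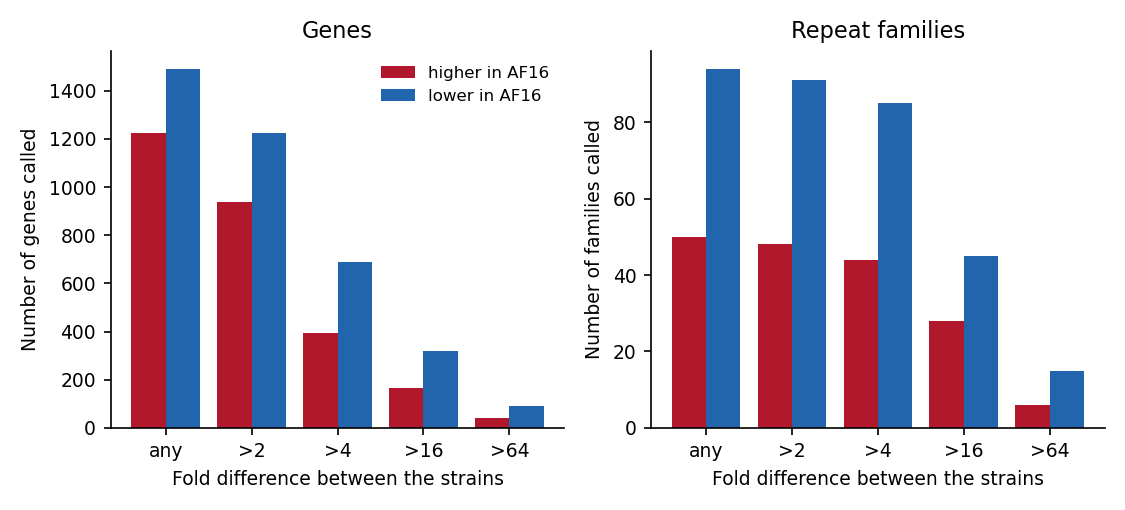
Bars give the number of genes (left) and repeat families (right) called in AF16 against JU1421 males beyond the fold difference on the horizontal axis, with "any" for all calls and features at 0 in one strain held at their lower bound. Beyond 4-fold 687 genes were lower and 392 higher in AF16, and beyond 64-fold 90 and 42. Over all calls the larger number of genes, 1492 lower against 1226 higher, turned with library totals as the only scaling. With the 6 compared libraries alone 1629 genes were lower and 1546 higher.

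Among genes higher in AF16, WBGene00030260 had the lowest adjusted p. It stood at 2383, 2464 and 2421 CPM in the AF16 libraries and at 36.2, 31.9 and 29.3 CPM in the JU1421 libraries. All AF16 libraries lay far above all JU1421 libraries, with 2423 ± 40.7 CPM (SD, n = 3) against 32.5 ± 3.50 CPM, which is 74.5-fold higher (edgeR adjusted p = 1.88e-13, log2 6.22, SE 0.23). In ZZY10330 males it stood at 2987 ± 536 CPM and in ZZY10307 males at 35.2 ± 4.63 CPM, so that one sterile strain was near the AF16 level and the other near the JU1421 level. WBGene00030259, which precedes it in the numbering, stood at 2072, 2132 and 2053 CPM in AF16 and at 19.6, 33.6 and 35.7 CPM in JU1421. Its means were 2086 ± 40.96 and 29.6 ± 8.77 CPM, which is 70.3-fold higher (edgeR adjusted p = 1.14e-12, log2 6.14, SE 0.26). ZZY10330 males were again near AF16, at 1874 ± 278 CPM, and ZZY10307 males near JU1421, at 27.4 ± 4.53 CPM. In the AF16 library labelled female, WBGene00030260 and WBGene00030259 had 250.0 and 222.9 CPM of library totals, a scale unlike that of the male values. Neither had a count in the JU1421 female library, which allows up to 0.878 CPM at a floor of 3 counts.

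Among genes lower in AF16, WBGene00031446 had the lowest adjusted p. It stood at 115.7, 119.4 and 113.2 CPM in AF16 and at 9418, 11413 and 11552 CPM in JU1421. Mean levels were 116 ± 3.12 and 10794 ± 1194 CPM (SD, n = 3), which is 92.9-fold lower (edgeR adjusted p = 1.41e-12, log2 -6.54, SE 0.29). It was the seventh most abundant gene over the 6 libraries. WBGene00027837 was nearly absent from AF16, with 6 counts over 3 libraries, and stood at 1788, 2883 and 2428 CPM in JU1421. Its mean in JU1421 was 2367 ± 550 CPM against 0.723 ± 0.693 CPM in AF16 (log2 -11.67, SE 0.49, edgeR adjusted p = 3.43e-12). Both sterile strains stood between the parents for these genes. WBGene00031446 was at 1386 ± 423 CPM in ZZY10307 and 3824 ± 986 CPM in ZZY10330, and WBGene00027837 at 472 ± 73.5 and 801 ± 286 CPM. A level in sterile males can also be low where the parents do not differ. The fourth most abundant gene stood at 7366 and 7648 CPM in AF16 and JU1421, but at 809 and 2557 CPM in ZZY10307 and ZZY10330. A level between the parents is therefore a description only.

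The 8 genes with the largest difference in each direction reached high levels in one strain and almost none in the other. The 8 higher in AF16 had AF16 means from 74.4 to 3579 CPM and JU1421 means of at most 5.76 CPM. The 8 lower in AF16 had JU1421 means from 143 to 2367 CPM and AF16 means of at most 0.880 CPM. In each direction 3 of the 8 had no count at all in the lower strain, with lower bounds of 376-fold to 425-fold for those higher in AF16 and of 422-fold to 1015-fold for those lower, against a floor of 3 counts over the group. Adjusted p in edgeR lay between 3.43e-12 and 0.00127.

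JU1421 males concentrated more of their counts in a few genes. The 10 most abundant genes of each library took 5.90, 5.17 and 4.78% of gene counts in the AF16 libraries and 8.05, 8.28 and 8.05% in the JU1421 libraries. Every JU1421 library lay above every AF16 library, with 8.13 ± 0.133% against 5.28 ± 0.566% (SD, n = 3, exact two-sided permutation p = 0.1, the smallest that 3 against 3 libraries allow). The 100 most abundant genes took 22.98 ± 0.506% in AF16 and 25.9 ± 0.976% in JU1421, again without overlap (exact two-sided permutation p = 0.1). Among the 20 genes with the highest mean over the 6 libraries, 10 were lower in AF16, none was higher and 10 did not pass edgeR's test, with a median of -0.69 on the log2 scale. With library totals, DESeq2 size factors, DESeq2's own test or the 6 libraries alone, 1 of the 20 was higher and 10 to 12 were lower. These genes were picked for being abundant in these same libraries, so their counts are a description. In 15 of the 20 the JU1421 males stood at least 4-fold above the JU1421 female library.

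The most abundant gene of all in this comparison stood at 2873 ± 175 CPM in AF16 and 15361 ± 3112 CPM in JU1421 (SD, n = 3), a 5.35-fold difference. The third stood at 5572 ± 251 against 10629 ± 288 CPM and the fifth at 4298 ± 298 against 8821 ± 1144 CPM, with all JU1421 libraries above all AF16 libraries in each case. All 3 passed edgeR's test, with adjusted p between 6.52e-07 and 0.00442. The fourth did not pass the test, at 7366 ± 471 CPM in AF16 and 7648 ± 968 CPM in JU1421. The second, WBGene00250008, varied more within each strain than between them. It stood at 16695, 9448 and 4127 CPM in the AF16 libraries and 14053, 1221 and 7191 CPM in the JU1421 libraries (log2 0.43, SE 0.86, edgeR adjusted p = 0.792).

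Some genes were counted in the males of 1 strain only. With no count in the 3 libraries of one strain and at least 5 CPM of library totals in the other, 101 genes were seen in AF16 alone and 160 in JU1421 alone. Such genes were picked by this contrast, so their calls, 76 and 152, are no support. The libraries labelled female were not used to pick them. Of the 160 seen in JU1421 males alone, 106 were also without a count in AF16 XX animals and 4 reached 5 CPM there, while 42 reached it in the JU1421 female library. Of the 101 seen in AF16 males alone, 72 had no count in the JU1421 female library and 5 reached 5 CPM, while 34 reached it in the AF16 female library. At least 5 CPM in 1 or both sterile strains was found for 117 of the 160 and for 11 of the 101.

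The sterile strains gave another reading of the large differences. Among genes called beyond 4-fold, ZZY10307 stood nearer to AF16 than to JU1421 on the log2 scale in 126 of 392 genes higher in AF16 and in 185 of 687 lower, or 32.1% and 26.9%. For ZZY10330 these were 160 and 165 genes, or 40.8% and 24.0%. A pseudocount of 0.5 CPM was added to the group means for this. Most of the large differences between the parents thus stood in the sterile males at a level nearer to JU1421. A gene higher in AF16 that is low in sterile males for any reason counts as nearer to JU1421 here. These males have a largely C. nigoni genome and are also sterile, and the part of either was not tested.

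Differences seen in males were then looked up in the 2 libraries labelled female, 1 for each strain, which had no part in the calls. With 1 library a strain there is no test, and a ratio of at least 2 with a prior count of 2 is used as a description. Of the 1226 genes higher in AF16 males, 1020 had at least 5 CPM in one of these libraries. Among them, 297 were at least 2-fold higher in the AF16 female library and 19 at least 2-fold lower, or 29.1% and 1.86%. Of the 1492 genes lower in AF16 males, 1062 had that level, and 305 were at least 2-fold lower and 135 at least 2-fold higher, or 28.7% and 12.7%. Over all tested genes with that level, 9453 in number, 15.5% were higher and 9.42% lower by this measure. With at least 5 CPM asked of both libraries, 110 of 814 genes higher in AF16 males were higher and 12 lower, and 156 of 794 genes lower in AF16 males were lower and 32 higher. The strain difference of the males thus stood in the same direction in XX animals more often than in the opposite one, in both directions. Reads of a strain may be assigned alike in both sexes, and its part in this was not tested.

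**Figure D3:**
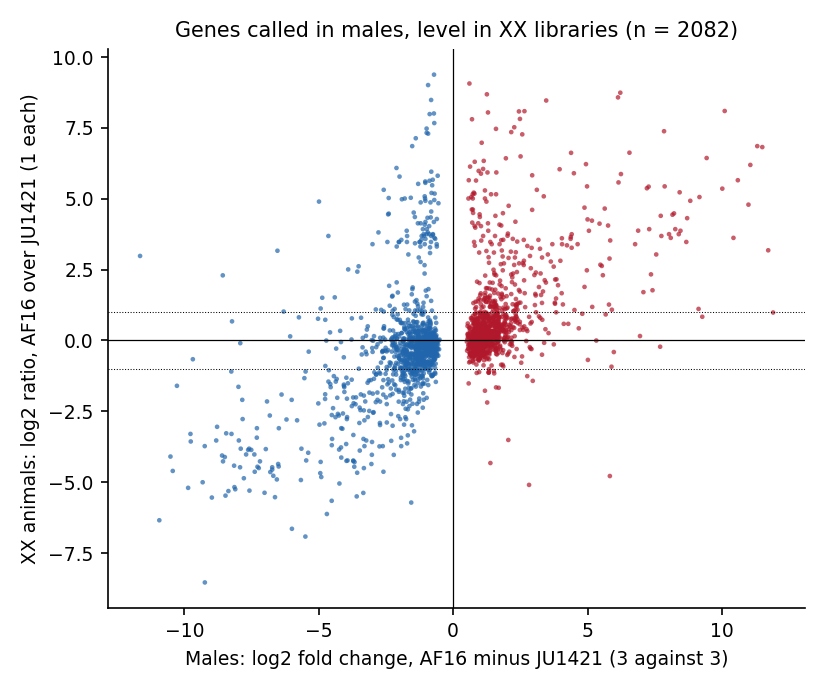
Each point is a gene called in males with at least 5 CPM in one of the libraries labelled female, placed by the log2 fold change in males (AF16 minus JU1421, 3 libraries each) and by the log2 ratio of the AF16 to the JU1421 female library (1 each). Dotted lines mark 2-fold. Above the upper line lie 135 of 1062 blue points, although these genes were lower in AF16 males. That is 12.7%, against 15.5% of all tested genes with that level in a female library.

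The 135 genes lower in AF16 males and higher in AF16 XX animals were mostly genes with a high male level. Their medians were 91.2 CPM in AF16 males and 232 CPM in JU1421 males. In the female libraries the medians were 17.1 CPM of library totals in AF16 and 0.293 CPM in JU1421, and 61 of the 135 had no count in the latter. In 118 of them the JU1421 males stood at least 4-fold above the JU1421 female library. AF16 animals with XX chromosomes ordinarily make sperm, as given above, and those of C. nigoni do not. The part of this in the 135 genes was not tested.

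A class of genes high in XX animals was present at higher levels in AF16 males than in JU1421 males. The class was defined without the libraries compared, by at least 100 CPM in both female libraries and a mean in the 6 sterile male libraries below 5% of the JU1421 female level, which gave 71 genes. Since the sterile males are mostly C. nigoni, this choice favours genes that are low in JU1421 males. Of the 71, 60 passed the filter on low counts, 13 were higher in AF16 males and none was lower, against 9.23% and 11.2% of all genes tested. At other scalings, with DESeq2 or with the 6 libraries alone, 16 to 20 were higher and up to 2 lower. The median of the 60 was 1.07 on the log2 scale. Summed over the 71 genes, the AF16 male libraries held 6456, 4910 and 5339 CPM of library totals and the JU1421 male libraries 654, 545 and 557 CPM. All AF16 libraries lay above all JU1421 libraries. In AF16 2 to 5 of the 71 genes had no count in a male library, and in JU1421 16 to 19 had none.

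A single gene held most of this sum. WBGene00024796 stood at 28354 CPM of library totals in AF16 XX animals and 15877 CPM in those of JU1421, the highest level of the class. In AF16 males it stood at 4100, 2774 and 3225 CPM and in JU1421 males at 4.53, 6.51 and 3.99 CPM, so that the male libraries of the strains differed by 618-fold in the fit (log2 9.27, SE 0.47, edgeR adjusted p = 3.16e-10). Both sterile strains were low, as the class asks of their mean, at 2.63 CPM in ZZY10307 and 2.28 CPM in ZZY10330. Without this gene the class summed to 2356, 2137 and 2114 CPM in AF16 males and 649, 539 and 553 CPM in JU1421 males. WBGene00035047, second in the class at 19413 and 12921 CPM in the AF16 and JU1421 female libraries, reached 78.7 ± 15.3 CPM in AF16 males and 4.28 ± 2.54 CPM in JU1421 males (SD, n = 3, log2 4.12, SE 0.79, edgeR adjusted p = 0.00117). The next 3 of the class stood at 527, 387 and 149 CPM in AF16 males and at 0.881, 2.11 and 0 CPM in JU1421 males. All 5 genes with the highest AF16 female level were therefore called higher in AF16 males.

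The male level of these genes was not a fixed share of their XX level. In AF16 it ran from 0.406% to 11.9% of the level in the female library over the 71 genes, with a median of 2.72%. In JU1421 it ran from 0% to 5.74% with a median of 1.32%. The class kept only genes whose mean in the sterile males was below 5% of the JU1421 female level. Those males are mostly C. nigoni, so the choice favours low shares in JU1421 males. The difference in these shares between the strains is therefore a description only. Within AF16, WBGene00024796 stood at 11.9% and WBGene00035047 at 0.406%, although both were among the most abundant genes of AF16 XX animals. Whether the AF16 males make these RNAs or the libraries held material of XX animals was not tested, and in whole worms fewer cells of a type and less RNA per cell cannot be told apart.

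**Figure D4:**
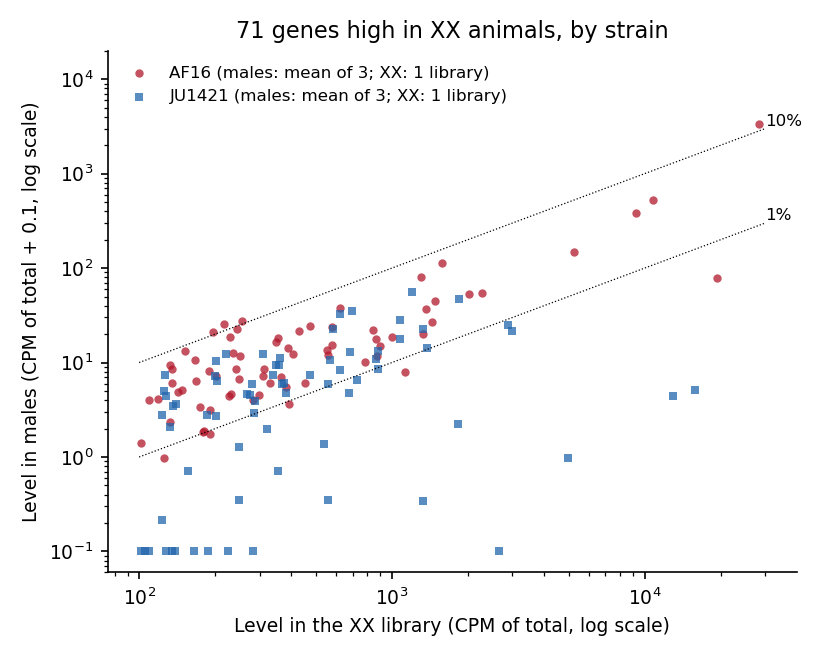
Each of the 71 genes high in XX animals appears once for AF16 (red circles) and once for JU1421 (blue squares), placed by its level in the library labelled female and by its mean in the 3 male libraries, both in CPM of library totals on log scales, with 0.1 added to male levels. Dotted lines mark 10% and 1% of the XX level. The 5 rightmost AF16 genes lie between 0.406% and 11.9%, while the same genes in JU1421 lie at or below 0.115%. The class was chosen for low levels in sterile males, which are mostly C. nigoni, and this favours low levels in JU1421 males.

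Genes were also grouped by whether the female libraries held a count at all. The grouping did not use the males, but only genes that passed the filter over the 12 male libraries, sterile ones included, are counted here. The groups are therefore a description of genes with a male level. Of 392 tested genes with a count in the JU1421 female library alone, 123 were lower in AF16 males and 12 higher, or 31.4% and 3.06%. Their median was -2.44 on the log2 scale, or -1.91 with genes at 0 in one strain held at their bound. Of 1128 tested genes with a count in the AF16 female library alone, 145 were higher and 160 lower, or 12.9% and 14.2%, with a median of -0.09 that turned to 0.00 when libraries were scaled by their totals. Of 425 tested genes with no count in either, 51 were higher and 116 lower, the latter 27.3% of them, with a median of -1.04. The last group holds RNA that was counted in males and in neither female library. Genes at 100 CPM or more in both female libraries numbered 1674, with a median of 0.04 on the log2 scale. Of these, 284 were higher and 232 lower in AF16 males, or 16.97% and 13.9%. Over all genes tested these shares were 9.23% and 11.2%. The share called also rises with level. The median level of this group was 158 CPM, and of the genes ranked highest by level, at a median of 165 CPM, 38.8% were called. Its shares above those of all genes are therefore not read as a trait of the group. With the 6 libraries alone, 178 genes with a count in the JU1421 female library alone were tested, 15 higher and 90 lower. For a count in the AF16 female library alone these were 966, 195 and 204, and for no count in either 284, 71 and 119.

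Repeat families were counted in the male libraries only. Their names have the form given by a program that builds repeat families from a genome, and each carries the prefix cb or c_sp9. The sources used here do not say what the prefixes stand for. Of 696 families tested, 144 differed, which is 20.7% of those tested, with 50 (7.18%) higher and 94 (13.5%) lower in AF16. With the 6 compared libraries alone these were 83 and 87, so the imbalance between the directions rests on the libraries fitted. In 135 of the 144 the libraries of the strains did not overlap, against 36.4% of all families tested. For 672 of the 696 families the fit relied wholly on a spread estimated over all families, so very small p-values of single families are not read as sizes here.

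The 2 prefixes went opposite ways. Of 276 tested families with the prefix cb, 41 were higher in AF16, 9 were lower and 226 did not pass the test. Of 420 with the prefix c_sp9, 9 were higher, 85 were lower and 326 did not pass. Median log2 fold changes were 1.56 and -1.26, or 1.19 and -0.78 with families at 0 in one strain held at their bound, where the median of all families with such bounds was 0. Calls beyond 16-fold, with the same bounds, were 26 higher and 2 lower for cb and 2 higher and 43 lower for c_sp9. With the 6 libraries alone, 69 of 241 tested cb families were higher and 8 lower, and 14 of 320 c_sp9 families were higher and 79 lower. At least 10 counts in one strain and none in the other were found for 66 cb families in AF16 and 13 in JU1421. For c_sp9 these were 18 in AF16 and 64 in JU1421. More cb families were seen in AF16 libraries, 209 ± 19.98 against 135 ± 22.6 (SD, n = 3), and more c_sp9 families in JU1421 libraries, 296 ± 23.1 against 208 ± 26.9. Neither pair of strains overlapped (exact two-sided permutation p = 0.1 for both).

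**Figure D5:**
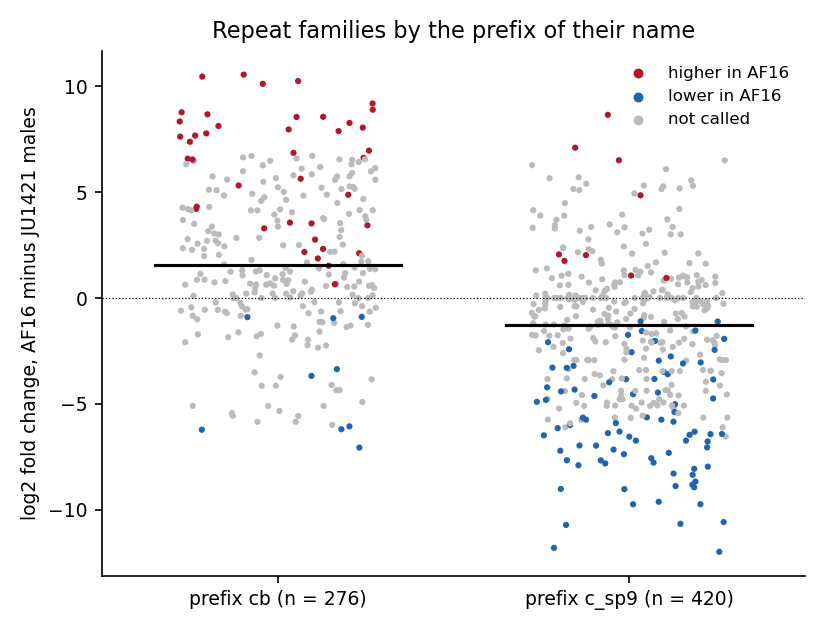
Each point is 1 of the 696 repeat families tested, by the prefix of its name, with the log2 fold change of AF16 minus JU1421 males on the vertical axis and a horizontal bar at the median (1.56 for cb, -1.26 for c_sp9). Red and blue points were called higher and lower in AF16; 41 of the 50 red points carry cb and 85 of the 94 blue points carry c_sp9.

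The families lower in AF16 with the lowest adjusted p were 5 with the prefix c_sp9 and 1 with cb. The family c_sp9_rnd-5_family-192 had 1 count over the AF16 libraries and stood at 656, 559 and 449 CPM in JU1421, a ratio of 4892 with an exact counting interval of 878 to 193287. The family c_sp9_rnd-5_family-7466 stood at 0.489 ± 0.847 CPM in AF16 and 308 ± 39.8 CPM in JU1421. The family c_sp9_rnd-5_family-1224 had no count in AF16 and 169 ± 56.8 CPM in JU1421, at least 497-fold lower. The families c_sp9_rnd-5_family-334 and c_sp9_rnd-5_family-231 stood at 0.425 ± 0.441 and 0.391 ± 0.678 CPM in AF16 and at 122 ± 18.3 and 90.9 ± 15.9 CPM in JU1421. In each of these 5 the AF16 libraries stood at no more than 1.47 CPM and the JU1421 libraries at 72.6 CPM or more. The sterile strains were near JU1421 here, for example at 442 ± 32.7 and 472 ± 21.8 CPM in ZZY10307 and ZZY10330 for c_sp9_rnd-5_family-192. The sixth was cb_rnd-5_family-948, which went against most calls of its prefix. It stood at 3.80, 4.99 and 1.58 CPM in AF16 and at 286, 259 and 249 CPM in JU1421, 74.5-fold lower.

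The families higher in AF16 with the lowest adjusted p all carried the prefix cb. The family cb_rnd-5_family-4518 stood at 3576, 3113 and 3031 CPM in AF16 and 874, 875 and 402 CPM in JU1421, which is 4.52-fold higher (edgeR adjusted p = 2.00e-15, log2 2.18, SE 0.26). For this family the sterile strains lay toward AF16, at 2018 ± 285 CPM in ZZY10307 and 2805 ± 303 CPM in ZZY10330. Another 4 families had no count in JU1421. The family cb_rnd-5_family-6811 stood at 62.3 ± 12.7 CPM in AF16, at least 152-fold higher, and cb_rnd-4_family-5119 at 58.4 ± 13.5 CPM, at least 142-fold higher. The family cb_rnd-5_family-367 stood at 50.5 ± 8.64 CPM, at least 123-fold higher, and cb_rnd-3_family-812 at 46.1 ± 10.4 CPM, at least 112-fold higher. In the sterile strains the means of these 4 were at most 1.41 CPM. The family cb_rnd-5_family-1231 stood at 77.0 ± 14.4 against 6.503 ± 6.43 CPM, 11.8-fold higher (edgeR adjusted p = 2.36e-07). Of families called beyond 4-fold, ZZY10307 and ZZY10330 stood nearer to AF16 in 3 and 5 of the 85 lower in AF16, and in 10 each of the 44 higher.

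The 5 most abundant families were counted in all libraries of both strains and, apart from cb_rnd-5_family-4518 above, differed by less than 2-fold. The family cb_rnd-5_family-688 took most repeat counts, 70.4, 68.6 and 71.1% in the AF16 libraries and 77.3, 79.7 and 79.8% in the JU1421 libraries. It was 1.94-fold lower in AF16 (log2 -0.95, SE 0.22, edgeR adjusted p = 0.000197). The family cb_rnd-5_family-2438 stood at 6671, 7628 and 7745 CPM in AF16 and at 12119, 16031 and 12646 CPM in JU1421, 1.85-fold lower (log2 -0.89, SE 0.24, edgeR adjusted p = 0.00141). Both were thus lower in AF16 although they carry the prefix whose calls were mostly higher there. The family cb_rnd-5_family-81 passed the test at 1.57-fold higher in AF16 (edgeR adjusted p = 0.0321), but its libraries overlapped, at 7473, 10372 and 5908 CPM against 5579, 6231 and 3358 CPM. That call was lost without AF16 replicate 1 or 2 or JU1421 replicate 1 or 3 (adjusted p = 0.0749, 0.285, 0.0594 and 0.275) and with DESeq2 (adjusted p = 0.0565). The family c_sp9_rnd-4_family-199 did not pass, at 2534 ± 1060 CPM in AF16 and 2795 ± 832 CPM in JU1421 (edgeR adjusted p = 0.900).

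Summed over families, c_sp9 counts were lower in AF16, at 9335, 10523 and 7314 CPM against 16653, 17860 and 14561 CPM in JU1421. No library of one strain overlapped the other (exact two-sided permutation p = 0.1, the smallest possible), and the ratio of means was 0.554. The sum over all cb families was lower in AF16 too, at 101185 ± 5538 against 172718 ± 27491 CPM (SD, n = 3), a ratio of 0.586 (p = 0.1 in the same exact test). Of all repeat counts cb took 91.8 ± 0.992% in AF16 and 91.3 ± 0.782% in JU1421 (exact two-sided permutation p = 0.6). The cb sum without cb_rnd-5_family-688 was 24005 ± 2101 CPM in AF16 and 23361 ± 3634 CPM in JU1421 (SD, n = 3), a difference below the SD of either strain (p = 0.9 in the same exact test). Without that family, cb took 72.7 ± 2.46% of repeat counts in AF16 and 58.7 ± 1.45% in JU1421, without overlap (exact two-sided permutation p = 0.1). The sources used here do not say how reads that match both a gene and a repeat, or several families, were assigned.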

How the data were processed

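The deposited tables hold unnormalised whole-number counts, by gene in all 14 libraries and by repeat family in the 12 from males. Per the labels' protocols, a TruSeq kit that keeps strand was used. Trimmomatic and edgeR appear in the submitters' processing notes, with no version. The sources used here name no aligner, counting program, build, annotation or strand setting, so near-identical or overlapping genes cannot be told apart. With no names for identifiers, the planned lists of genes by function were not used, and of the genes the naming rule picks only the first 2 in each direction are printed.

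Genes were filtered by filterByExpr with a minimum count of 10, scaled by TMM and fitted in edgeR 4.0.16 (R 4.3.3) over the 12 male libraries with 1 coefficient per strain. Families with at least 10 counts over these libraries were fitted with library sizes and TMM factors taken from the genes. CPM use TMM-scaled sizes, except where CPM of library totals are named. DESeq2 1.42.0 was an alternative. Fold bounds use a floor of 3 counts over the group. Intervals and floors cover counting error only. Named genes are the 2 with the lowest adjusted p in each direction among those with at least 10 CPM and no overlap of libraries, the 5 most abundant, and, added with results known, the 2 highest in the XX class. Named families are the 6 in each direction with the lowest adjusted p and the 5 most abundant. Libraries of a strain were not duplicates, since chi-square over degrees of freedom was 10.5 to 13.2 between them. The fits were tested on simulated data. The comparison, lists and classes were chosen with earlier results of these data known.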

Additional observations from a re-analysis of the deposited data

Results flagged for a closer look

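The difference between AF16 and JU1421 ran in opposite directions in males and in the libraries labelled female for some called genes. These were 135 of 1062 genes lower in AF16 males (12.7%) and 19 of 1020 higher (1.86%). Both shares were below those of all 9453 tested genes with that level, 15.5% higher and 9.42% lower in the AF16 female library. With 5 CPM asked of both female libraries, 32 and 12 genes remained. With 1 female library a strain, this opposite direction in the sexes was not tested.

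Of the genes named above this held for WBGene00031446. It was lower in every AF16 male library than in every JU1421 male library, but its log2 ratio of the AF16 to the JU1421 female library was 3.17, at 7.20 against 0.293 CPM of library totals. The JU1421 value rests on 1 count.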

How the results depend on the processing

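Over all alternatives the comparison gave 2030 to 3263 differing genes. Leaving out 1 library gave 2030 to 2380 genes and 111 to 138 repeat families. With DESeq2 3263 genes and 156 families differed, and with library totals as the only scaling 2787 genes did, of which 51.4% were higher in AF16, against 45.1% with TMM and 41.9 to 48.7% over the remaining alternatives. With the 6 parental libraries alone 3175 genes and 170 families differed, and families higher in AF16 numbered 83 in place of 50, and lower 87 in place of 94. Without genes at 0 in 1 strain, an alternative added after seeing the data, 2363 genes differed. At least 10 CPM in place of 5 left 46 genes seen in AF16 males alone and 84 in JU1421 males alone.

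Genes with the same direction in XX animals, 297 higher and 305 lower, became 191 and 166 at a ratio of 4, 184 and 197 at 20 CPM, and 110 and 156 with 5 CPM asked of both libraries, the last added after seeing the data.

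Same-numbered libraries share only a number: deviations of AF16 and JU1421 libraries with the same number correlated at 0.0359, 0.0195 and -0.00874. With a replicate block, 2507 genes and 130 families differed, and cb_rnd-5_family-81 lost its call (adjusted p = 0.0750).

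Without AF16 replicate 3, the difference in genes seen turned from -146 to 91.3, and that in the cb share of all repeat counts from 0.530 to -0.0307 percentage points. Over all such omissions these ran from -392 to 91.3 and from -0.0307 to 0.910. Signs also turned for 3 items that did not pass the test: WBGene00250008 (-0.14 without AF16 replicate 1, -0.07 without JU1421 replicate 2), WBGene00039559, the fourth most abundant gene (0.050 with library totals and 0.054 without JU1421 replicate 2), and c_sp9_rnd-4_family-199 (0.16 without AF16 replicate 3, 0.11 without JU1421 replicate 2). Over all omissions of 1 library these 3 ran from -0.14 to 1.26, from -0.115 to 0.054 and from -0.398 to 0.16. The cause was not tested. The 26 called genes that the naming rule picks kept their direction and call in all 286 refits, and 15 called families in 159 of 165, with cb_rnd-5_family-81 as the exception. They were picked for a low adjusted p, a large difference or a high level in these same libraries. The refits are therefore no independent support for them. With 3 counts over a group as the floor, a level below 0.339 CPM in AF16 or 0.411 CPM in JU1421 could not be read at this depth.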
